A study of Mus musculus with 27 samples.

Results

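Metallothioneins are small cysteine-rich proteins that bind zinc and copper, and the liver is one of their main sites of synthesis. Their genes are switched on by zinc through the metal-sensing transcription factor MTF1, by glucocorticoid hormones, and by inflammatory signals of the acute phase response such as interleukin 6. In the mouse, Mt1 and Mt2 are the widely expressed members, while Mt3 is known mainly from brain and Mt4 from stratified epithelium.

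Mt1 and Mt2 were taken here by name, with their large spread between mice already known. All features of the array that its annotation assigns to either gene were used. That gave 2 of the 12488 features, 1 for Mt1 (93573_at) and 1 for Mt2 (101561_at), and both passed the filter on dim signals. They were measured in 27 mouse livers, 1 liver per array, in 3 groups of 9 mice that the labels call Dex, Veh and Con. What the names stand for is not spelled out, and the agent, dose, time, age, sex, strain and genotype are not given, so Dex, Veh and Con stay as written. Nothing beyond 1 mouse per array is stated about separate cages or batches, and the p-values measure the spread between these mice.

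The labelled tissue was checked against hepatocyte genes. Of 15 listed hepatocyte genes 11 were on the array, all 11 passed the filter, and albumin (Alb) reached at least 12637 intensity units in every liver. The arrays shared a common trimmed mean, their medians lay between 17.6 and 33.3 units, and the lowest rank correlation between any pair of arrays was 0.833. Dex 1, Dex 2 and Dex 3 stood apart from the other 24 arrays in Fkbp5, Tat and Tdo2, genes that glucocorticoids are known to induce. Fkbp5 read 2951.2, 2211.4 and 1914.2 in these 3 mice and at most 280.2 in any other mouse. The values that rest on the Dex group are therefore also given without these 3 mice.

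The 2 genes lie side by side on chromosome 8 in the GRCm38.p6 assembly, in the order Mt4, Mt3, Mt2, Mt1, with Bbs2 and Nup93 as the flanking protein-coding genes. Their promoter windows are shown because the 2 transcripts varied together from mouse to mouse, and because MTF1 binds a short element of known sequence, the metal response element. The windows are RefSeq sequences from 250 bases before to 50 after the annotated start, on the plus strand of GRCm38.p6, at chr8:94178839-94179138 for Mt1 and chr8:94172368-94172667 for Mt2. Capitals mark matches to the core of the element, TGCACNC or TGCGCNC on either strand, where N is any base, so matches on the minus strand appear in reverse complement.
Mt1: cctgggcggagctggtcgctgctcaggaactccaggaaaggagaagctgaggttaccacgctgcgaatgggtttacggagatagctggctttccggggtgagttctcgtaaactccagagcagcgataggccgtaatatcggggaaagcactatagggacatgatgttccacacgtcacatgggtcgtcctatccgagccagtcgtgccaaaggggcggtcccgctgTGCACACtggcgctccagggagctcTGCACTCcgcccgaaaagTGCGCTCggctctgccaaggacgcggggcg
Mt2: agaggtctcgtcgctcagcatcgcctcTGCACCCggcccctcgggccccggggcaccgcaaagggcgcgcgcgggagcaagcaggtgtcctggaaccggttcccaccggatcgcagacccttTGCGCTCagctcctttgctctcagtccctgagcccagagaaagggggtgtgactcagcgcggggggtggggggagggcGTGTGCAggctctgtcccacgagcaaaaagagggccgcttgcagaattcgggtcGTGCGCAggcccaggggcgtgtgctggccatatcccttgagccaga
The Mt1 window held 3 matches, all on the plus strand, and the Mt2 window held 4, of which 2 were on the minus strand. Counted from the annotated start, those of Mt1 begin at -23, 3 and 21 and those of Mt2 at -223, -128, -50 and 5. Matches at positive positions lie after the start, inside the annotated transcript. Among 32851 promoter windows of the same length 25.7% held at least 1 match, 1.97% held 3 or more and 0.517% held 4 or more. The windows of Mt3 and Mt4 held 1 match each. The antioxidant element TGACNNNGC occurred 1 time in the Mt2 window, clear of the capitals, and 0 times in the Mt1 window (12.4% of all windows hold it). The E-box CACGTG occurred in neither (7.15% of all windows). The full palindrome bound by the glucocorticoid receptor, AGAACA and TGTTCT with any 3 bases between, occurred in neither window and in 0.00913% of all windows. These matches describe the letters of these windows only. Counts and absences depend on the annotated start, and whether it is the start used in these livers was not tested. Bases outside the windows were not searched.

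Mt1 differed between single livers by orders of magnitude in each group. In Dex livers its intensity was 11576.9, 22077.3, 7582.6, 4932.5, 208.0, 455.1, 448.0, 1359.9 and 560.2 in mice 1 to 9. In Veh livers it was 59.2, 6805.1, 3781.0, 115.2, 114.0, 115.5, 473.4, 39.8 and 90.1, in the same order of mouse numbers. In Con livers it was 4818.9, 1111.8, 971.3, 46.9, 15.7, 42.2, 932.4, 28.8 and 2691.4. Dex 1 to Dex 4 were the highest of their group, Veh 2 and Veh 3 stood far above the other Veh mice, and Con 4, Con 5, Con 6 and Con 8 lay far below the other Con mice. The groups overlapped: 3 Dex mice lay above every Veh mouse, 4 lay above every Con mouse, and the other 5 Dex mice fell inside the ranges of both.

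The low ends of the groups differed as well. The lowest Dex mouse, at 208.0, was above 6 of 9 Veh mice and 4 of 9 Con mice. Mt1 was under the median of its own array in Con 5 and Con 8, so these values are not clearly above background. At the high end, the Mt2 signal of Dex 2 was 26207.5 on an array whose brightest feature read 36896.1, and a loss of linearity there was not tested.

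Mt2 had a similar order of mice. In Dex livers its intensity was 13224.0, 26207.5, 10639.2, 4642.9, 264.6, 698.9, 754.4, 796.3 and 562.0 in mice 1 to 9. In Veh livers it was 69.8, 9087.6, 5698.0, 129.3, 97.6, 165.3, 517.9, 71.7 and 106.4. In Con livers it was 3970.9, 716.4, 876.5, 120.5, 110.2, 117.1, 958.8, 124.8 and 1201.6. The same 4 Dex mice, 2 Veh mice and 5 Con mice were high as for Mt1, and again 3 Dex mice lay above every Veh mouse and 4 above every Con mouse.

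**Figure D1:**
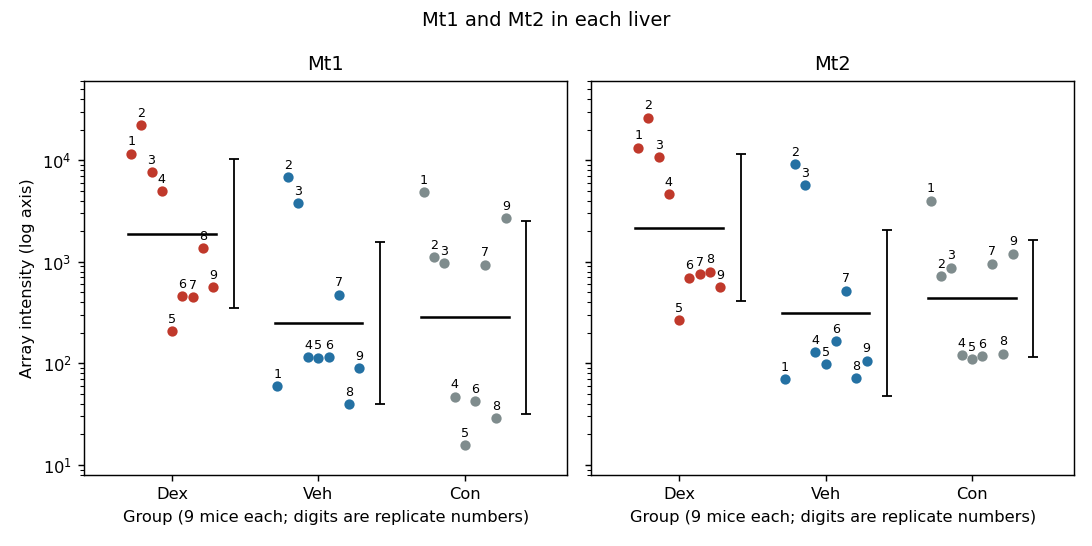
Array intensity of Mt1 (left) and Mt2 (right) in each liver on a log axis; points are mice with their replicate number, lines are means of log2 values and bars are 1 SD (n = 9 per group). The 9 Dex mice spread from 208.0 to 22077.3 for Mt1, and their lowest mouse lies above 6 of the 9 Veh mice.

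Dex livers had more Mt1 and Mt2 than Veh livers on average, but the difference did not pass the test across all features. Mean log2 intensity of Mt1 was 10.88 ± 2.43 in Dex and 7.97 ± 2.65 in Veh (SD, n = 9 each), a difference of 2.92 ± 1.16 (SE; 95% interval 0.55 to 5.28; limma adjusted p = 0.219). Mt2 averaged 11.08 ± 2.41 in Dex and 8.30 ± 2.71 in Veh, a difference of 2.79 ± 0.99 (95% interval 0.77 to 4.81; limma adjusted p = 0.174). In this comparison 0.265% of the 6784 tested features were called at an adjusted p under 0.05, and 0 of the 2 metallothionein features were. Both unadjusted limma p-values were under 0.05 (0.0172 and 0.00846), as were those of 15.2% of all features.

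In size alone the Mt1 difference was among the largest: 3 of the 6784 features, Mt1 included, differed by as much or more between Dex and Veh. Large differences come more easily to a feature with so wide a spread, known beforehand, and by limma p-value Mt1 ranked 534. All 9 Dex mice lay above the Veh median for each gene, and the Dex median was 11.8 times the Veh median for Mt1 and 6.16 times for Mt2. The two-sided exact permutation test of the means over the 18 mice gave p = 0.0300 for Mt1 and 0.0369 for Mt2, 2 of 6 such tests and not adjusted for them or for the choice of these genes. Without Dex 1, Dex 2 and Dex 3 the differences were 1.55 ± 1.22 for Mt1 and 1.37 ± 0.99 for Mt2 (limma adjusted p = 0.621 and 0.577). These were the 3 Dex mice highest in both genes, so the differences had to shrink without them. RNA quality moved with this comparison: the beta-actin control signal at the 3′ end over that at the 5′ end had a log2 ratio of 0.886 ± 0.169 in Dex and 1.27 ± 0.321 in Veh (SD, n = 9 each). With that ratio as a covariate the differences were 4.15 for Mt1 and 4.18 for Mt2 (limma adjusted p = 0.385 and 0.369). The unadjusted limma p-values of that fit were 0.00445 and 0.000735, and 1 of the 6784 features was called in it.

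Against Con livers, Dex livers again had higher means without passing the test. Mt1 averaged 10.88 ± 2.43 in Dex and 8.15 ± 3.16 in Con (log2, SD, n = 9 each), a difference of 2.74 ± 1.16 (limma adjusted p = 0.10; 95% interval 0.38 to 5.10). Mt2 averaged 11.08 ± 2.41 in Dex and 8.77 ± 1.92 in Con, a difference of 2.32 ± 0.99 (limma adjusted p = 0.105). In this comparison 16.4% of all features were called, 3.26% as higher and 13.2% as lower in Dex, and neither metallothionein was called. The exact permutation p was 0.0571 for Mt1 and 0.0383 for Mt2, unadjusted. Without Dex 1, Dex 2 and Dex 3 the differences were 1.38 and 0.90 (limma adjusted p = 0.511 and 0.609). Here too the differences had to shrink, because these Dex mice were the highest in both genes. Medians told less of a difference than means: the Dex median was 1.46 times the Con median for Mt1 and 1.11 times for Mt2. The Con median was the lowest of the 5 high Con mice, 932.4 for Mt1 and 716.4 for Mt2. The next mice down read 46.9 and 124.8, so these ratios hang on the side of the gap on which the middle mouse lay. For Mt1, 5 of 9 Dex mice lay above the Con median, and for Mt2 6 of 9 did.

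Veh and Con livers did not differ in mean level beyond the spread between mice. The difference, Veh minus Con, was -0.18 ± 1.16 for Mt1 and -0.47 ± 0.99 for Mt2 (log2, SE, 9 mice each; limma adjusted p = 0.943 and 0.796), with 95% intervals of -2.54 to 2.19 and -2.49 to 1.55. These intervals leave room for several-fold changes in either direction. In this comparison 3.86% of all features were called, and neither metallothionein was. The medians were far apart all the same: Mt1 had a median of 115.2 in Veh and 932.4 in Con, and Mt2 129.3 in Veh and 716.4 in Con. The Con medians were the lowest of the high Con mice. The next Con mice down read 46.9 for Mt1 and 124.8 for Mt2, so the distance between the medians rests on that gap. Only 2 of 9 Veh mice, Veh 2 and Veh 3, were above the Con median for Mt1 or Mt2. Ranked by median the groups ran Dex, Con, Veh for both genes. Geometric means had the same order, at 1890 in Dex, 251 in Veh and 283 in Con for Mt1 and at 2170, 314 and 435 for Mt2, and the spread between mice did not separate Veh from Con.

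**Figure D2:**
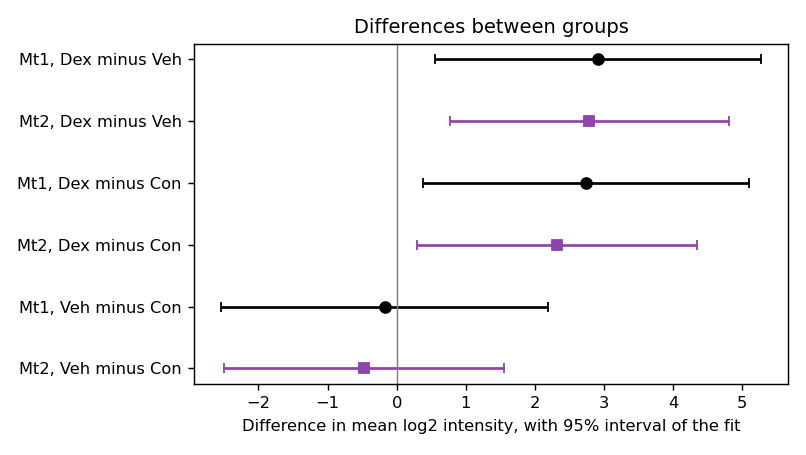
Differences in mean log2 intensity of Mt1 (circles) and Mt2 (squares) between groups, first group minus second, with 95% intervals of the limma fit to 27 arrays. The 4 intervals of Dex against Veh or Con lie above 0 before adjustment over all features, and those of Veh minus Con span 0.

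Few transcripts on the array varied as much between mice of a group. Both genes were chosen with their large spread already known, so the ranks below describe it and are not a test. The standard deviation of Mt1 was 2.43 in Dex, 2.65 in Veh and 3.16 in Con (log2, n = 9 each), which ranked 10, 6 and 2 among the 6784 tested features. That of Mt2 was 2.41, 2.71 and 1.92, which ranked 11, 5 and 10. The median feature had a standard deviation of 0.566 in Dex, 0.469 in Veh and 0.375 in Con, so Mt1 varied 4.30, 5.66 and 8.42 times as much. With the Mt1 signals of Con 5 and Con 8, which were not clearly above background, raised to the medians of their arrays (23.3 and 31.4), the Con value was 3.05, still at rank 2. The highest Mt1 value was 106 times the lowest in Dex and 171 times in Veh, and no ratio is given for Con because its lowest value is not clearly above background. For Mt2 the ratios were 99 in Dex, 130 in Veh and 36 in Con. High values were also present in mice of the Con group.

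The width of the spread did not differ detectably between groups. The mean absolute deviation of Mt1 from its group median was 2.07 in Dex, 1.76 in Veh and 2.66 in Con, and that of Mt2 was 1.97, 1.82 and 1.59 (log2). Of 6 two-sided exact permutation tests of these deviations 0 passed, with adjusted p = 0.884 in each and unadjusted p between 0.415 and 0.884. Without Dex 1, Dex 2 and Dex 3 the Dex deviations were smaller than those of Veh and Con, with differences of -0.68 against Veh and -1.58 against Con for Mt1 (exact permutation adjusted p = 0.630 and 0.605). These mice were the highest of the Dex group in both genes, so the narrower spread follows largely from leaving them out and is not a check.

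**Figure D3:**
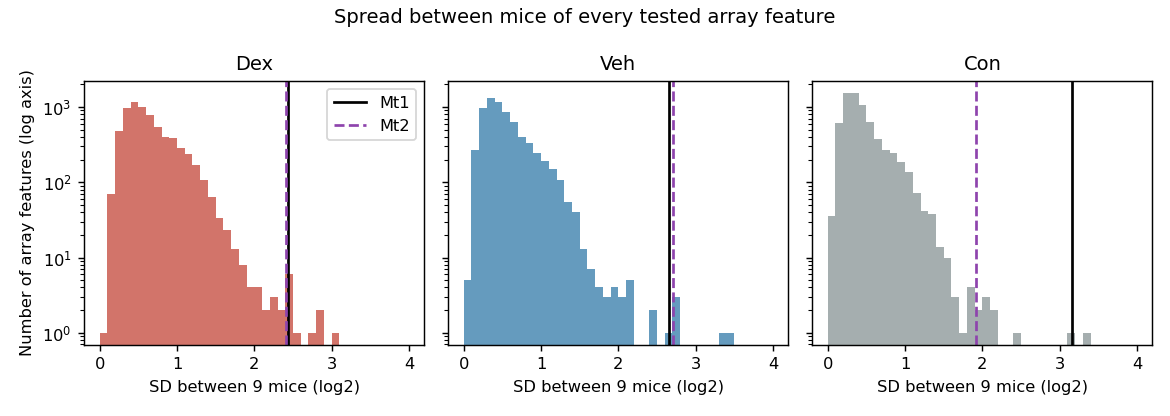
Histograms of the standard deviation between the 9 mice of a group (log2) over all 6784 tested features, with a log axis for their number; lines mark Mt1 (solid) and Mt2 (dashed). Both genes lie at the far right in each group, at ranks from 2 to 11, a spread already known when they were chosen.

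Mt1 and Mt2 moved together across mice. Over the 27 livers Pearson's r of the log2 intensities was 0.965 and Spearman's rho 0.947 (permutation adjusted p = 4e-05 each, from the smallest p that 100000 permutations can give; 4 sets of mice). Without Con 5 and Dex 2, the mice farthest from the median, r was 0.969, and after subtracting group means it was 0.957. Within Dex r was 0.982 and rho 0.933 (exact permutation adjusted p = 4.41e-05 and 0.00100; r = 0.963 without Dex 1 and Dex 2). Within Veh r was 0.993 and rho 0.967 (exact permutation adjusted p = 6.98e-05 and 0.00033; r = 0.956 without Veh 2 and Veh 3). The Con mice fell into a set of 5 and a set of 4 with a wide gap between, and no coefficient is read for them.

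The 2 genes read differently at the low end of the Con group, where the Mt1 signals of Con 5 and Con 8 were not clearly above background. There the 4 low mice, Con 4, Con 5, Con 6 and Con 8, had Mt1 between 15.7 and 46.9, while Mt2 stayed between 110.2 and 124.8. The difference log2 Mt1 minus log2 Mt2 lay between -2.81 and -1.36 in these 4 mice and between -0.04 and 1.16 in the other 5 Con mice. With Mt1 of Con 5 and Con 8 raised to the medians of their arrays, their differences were -2.24 and -1.99. In Veh the difference lay between -0.85 and 0.22, also in mice with an Mt1 signal as low as 39.8, and in Dex between -0.75 and 0.77. Its group mean was -0.20 ± 0.46 in Dex, -0.33 ± 0.31 in Veh and -0.62 ± 1.36 in Con (SD, n = 9 each). The exact permutation test passed for 0 of 3 pairs of groups (adjusted p = 0.540 for each), so a difference between the 2 genes in their change between groups was not detectable with these mice.

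**Figure D4:**
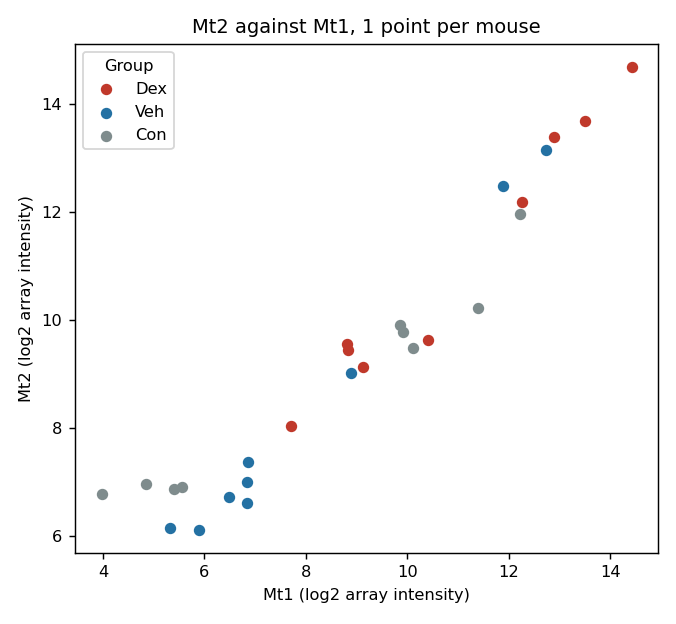
Mt2 against Mt1 in log2 intensity, 1 point per mouse, coloured by group. The points lie along 1 line from the low Veh mice to Dex 2, and at the lower left the 4 low Con mice keep an Mt2 between 6.78 and 6.96 while their Mt1 differs.

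The genes whose pattern over the 27 mice was most like that of the metallothioneins were sought among 5198 other genes, by the mean of Pearson's r with Mt1 and with Mt2. This is a description, without a test: the median gene had a mean r of -0.08 and 5% of genes exceeded 0.35. Fkbp5, a co-chaperone of steroid receptors, came first with 0.77. It was followed by Pnpla2 (0.73), the triglyceride lipase ATGL, and Lbp (0.71), the lipopolysaccharide binding protein of the acute phase response. The next were Slc25a51 (0.69), a mitochondrial carrier of NAD, Serpina3n (0.69), a protease inhibitor of the acute phase, and Nfkbia (0.68), the inhibitor of NF-kB. Lcn2 (0.68), the iron-chelator binding lipocalin, and Fh1 (0.67), fumarate hydratase, completed the first 8. With group means subtracted the 8 values lay between 0.62 and 0.71, and the likeness was uneven between groups: within Veh the mean r was 0.24 for Slc25a51, 0.30 for Nfkbia and 0.46 for Fkbp5, against 0.81 for Lbp. Without Dex 1, Dex 2 and Dex 3 they lay between 0.42 and 0.66, with Pnpla2 highest. Second features of Slc25a51, Nfkbia and Lcn2 had a mean r of 0.56, 0.46 and 0.34.

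The likeness was not of 1 kind in all mice. In Con, the 4 mice with Fkbp5 at 187.0 or more were Con 1, Con 2, Con 3 and Con 7, all of them high in Mt1, while the 4 with low Mt1 had Fkbp5 between 43.2 and 83.3. The clock gene Per1, which glucocorticoids also induce, read between 62.4 and 80.8 in those same 4 high mice and at most 22.4 in the other 5. Other genes of the glucocorticoid-induced list did not all follow. Within Con the mean r with Mt1 and Mt2 was 0.79 for Tdo2, 0.17 for Tat and -0.13 for Ddit4. Con 9 was the exception among the mice high in Mt1, with Mt1 at 2691.4 and Per1 at 14.1. The Con array medians lay between 22.8 and 33.0, so Per1 at 22.4 or less is not clearly above background. Con 9 instead had the highest Lcn2 (412.0), Saa3 (1031.4) and Orm2 (975.4) of the Con group, all 3 of them acute phase genes. Of these, Lcn2 is also on the glucocorticoid-induced list used below, so the lists are not separate. Con 1 was high in both sets, with Lcn2 at 352.5 and Orm2 at 637.2 against at most 31.4 and 84.7 in the other 7 Con mice.

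The 2 high Veh mice differed in the same way. Veh 2 had the highest Lbp (2049.5), Lcn2 (2699.4), Saa3 (624.5) and Orm2 (3041.3) of its group, with Fkbp5 at 79.3 and Per1 at 40.2. Veh 3 had the highest Fkbp5 (247.7) and Per1 (51.6) of its group, with Lcn2 at 104.6. Veh 6 came next in both, with Fkbp5 at 169.5 and Per1 at 44.5, but had Mt1 at 115.5, close to the Veh median. Veh 7, the next in Mt1 at 473.4, was second in Lcn2 (1159.6) and Orm2 (664.9) and had a low Fkbp5 of 47.7. Within Veh the mean r with the metallothioneins was -0.63 for Tdo2, -0.47 for Tat and -0.095 for Ddit4. In Dex, the 3 mice with the highest Mt1 were those with the high Fkbp5 given above. The 2 sets of genes were not separate there. Dex 2 also had the highest Lcn2 (7685.6), Saa3 (3779.9), Orm2 (712.4) and Lbp (2639.1) of its group. Dex 1 had Lcn2 at 4008.5 but the lowest Saa3 (132.7), and Dex 3 had the lowest Orm2 (73.5). Dex 4, at 4932.5 for Mt1, had Fkbp5 at 161.8, Lcn2 at 3821.6 and Saa3 at 2346.1. Dex 5 had Lcn2 at 2693.9 with the lowest Mt1 of the Dex group, 208.0, so a high Lcn2 did not always go with a high Mt1. Per1 read 126.3 in Dex 7, with Mt1 at 448.0, and 54.5 and 60.2 in Dex 1 and Dex 2. Within Dex the mean r with the metallothioneins was 0.84 for Tdo2, 0.91 for Tat and 0.76 for Ddit4. Tat, the tyrosine aminotransferase of liver, had a mean r of 0.53 with the metallothioneins over the 27 mice and of 0.05 without Dex 1, Dex 2 and Dex 3.

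**Figure D5:**
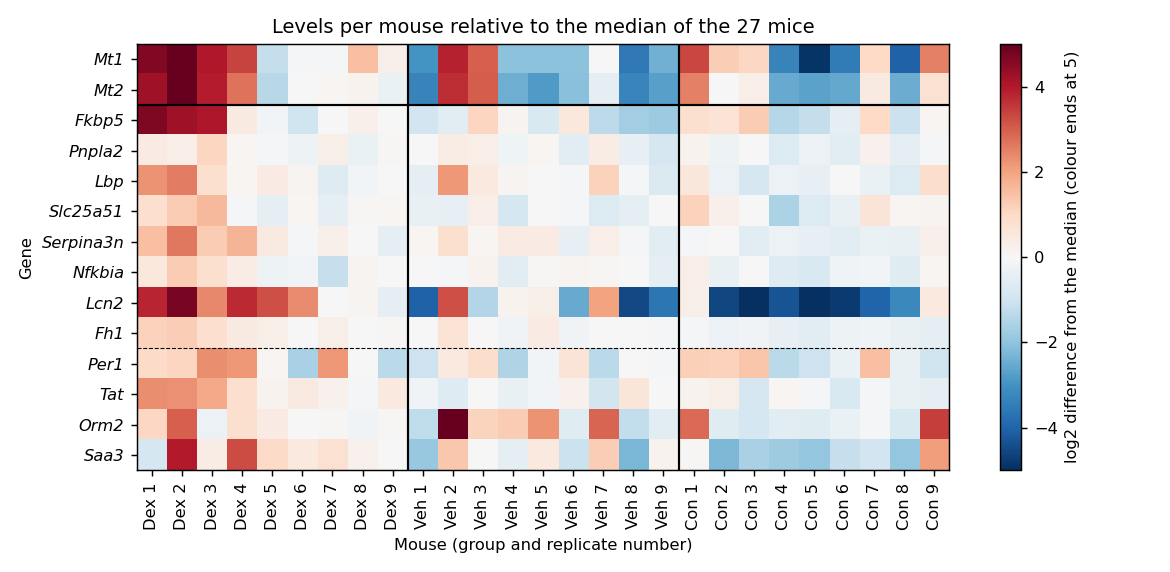
Log2 level of 14 genes in each mouse relative to the median of the 27 mice (colour), with Mt1 and Mt2 on top, the 8 genes of most similar pattern below them, and Per1, Tat, Orm2 and Saa3 at the bottom. Fkbp5 is high in Dex 1 to Dex 3, and Orm2 is high in Dex 2, Veh 2, Veh 7, Con 1 and Con 9.

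The other genes of metal handling gave few calls. Of 41 listed genes of zinc and copper handling 28 were on the array and 24 were tested, and by limma 0 passed in Dex vs Veh and 0 in Veh vs Con, with 3 and 8 of them at an unadjusted p under 0.05, beside 15.2% and 23.6% of all features. In Dex vs Con 4 of the 24 passed, against 16.4% of all features. Atox1, the copper chaperone, rose by 0.51 ± 0.18, while the zinc transporters Slc39a9 and Slc39a4 fell by 1.02 ± 0.27 and 0.52 ± 0.18 and the metal ion transporter Slc11a2 fell by 0.90 ± 0.25 (log2, SE, limma adjusted p between 0.0122 and 0.0498). A second feature of Slc39a4 (-0.09) and of Slc11a2 (-0.47) did not pass. The list's median change in this comparison was -0.03, beside -0.20 over all features, and without Dex 1, Dex 2 and Dex 3 the number of calls was 0. In Dex vs Veh the smallest p-values belonged to the copper pump Atp7b (1.14 ± 0.38, limma adjusted p = 0.141), Cox17 (-0.42 ± 0.17) and Slc30a3 (0.37 ± 0.15). Those in Veh vs Con belonged to the zinc exporter Slc30a4 (-1.26 ± 0.40, limma adjusted p = 0.0652), Atox1 (0.54 ± 0.18) and Atp7b (-1.11 ± 0.38).

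Mtf1, which codes for the zinc sensor, lay between 10.7 and 92.1 in Dex, 12.6 and 54.2 in Veh and 17.0 and 71.8 in Con, and its mean r with Mt1 and Mt2 was 0.01. Slc30a1, a zinc exporter known to be induced by MTF1, had at most 32.4 in Dex, 29.3 in Veh and 44.4 in Con, and was too dim to be tested. Mt3 had a median of 282.6 in Dex, 276.2 in Veh and 233.8 in Con and its highest value, 873.3, in Dex 2. Cross-reaction of its feature with the other metallothioneins was not tested. Mt4 stayed at or under 24.1 in every liver and was not tested.

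The glucocorticoid, acute phase and oxidative stress lists give the surroundings of these changes. Of 30 tested glucocorticoid-induced genes limma called 0 in Dex vs Veh and 0 in Veh vs Con. At an unadjusted p under 0.05 there were 11 and 2 of the 30, beside 15.2% and 23.6% of all features. The list's median change was 0.46 in Dex vs Veh beside -0.03 over all features. In Dex vs Con 6 of 30 rose, beside 3.26% of all features called as higher: Lcn2 (5.57 ± 0.97), Igfbp1 (2.39 ± 0.83), Ddit4 (1.63 ± 0.56), Tat (1.18 ± 0.28), Tdo2 (0.70 ± 0.23) and Hsd11b1 (0.52 ± 0.14). Without Dex 1, Dex 2 and Dex 3 the list's median was 0.03 in Dex vs Veh and -0.26 in Dex vs Con, where Lcn2 was higher, Cebpd was lower and no other member was called. Fkbp5 differed by 1.98 ± 0.65 in Dex vs Veh (limma adjusted p = 0.139) and by 1.43 ± 0.65 in Dex vs Con (0.126), neither of which passed. Second features of Lcn2 and Tdo2 differed by 0.04 and 0.35 in Dex vs Con and did not pass.

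Of 25 tested acute phase genes 6 rose in Dex vs Con, beside the same 3.26%: Lcn2 (on both lists and counted in each), Saa2 (2.71 ± 0.79), Orm3 (2.16 ± 0.34), Saa3 (2.07 ± 0.60), Serpina3n (1.07 ± 0.28) and Hp (0.75 ± 0.21). In Veh vs Con 1 of 25 rose, Orm3 (1.47 ± 0.34, limma adjusted p = 0.0190), beside 3.86% of all features called in either direction. In Dex vs Veh limma called 0, with 6 at an unadjusted p under 0.05, beside 15.2% of all features. A second feature of Saa2 (1.57 in Dex vs Con) did not pass. With Dex 1, Dex 2 and Dex 3 left out, Lcn2, Orm3 and Saa3 were higher and Fgb lower in Dex vs Con. Of 20 tested genes of oxidative stress 8 passed in Dex vs Con, beside 16.4% of all features, with a list median of -0.37 (-0.30 without Dex 1, Dex 2 and Dex 3). The glutathione transferases Gstm1, Gstm2 and Gstm3 rose, while Gclc, Gclm, Txnrd1, Cat and Abcc2 fell. Second features of Gstm1, Gstm2 and Cat did not pass, and cross-reaction among the Gstm genes was not tested. Gclc, the catalytic subunit of the first enzyme of glutathione synthesis, fell by 1.23 ± 0.23 (limma adjusted p = 0.000936), and without Dex 1, Dex 2 and Dex 3 the calls were Gstm2, Gclc and Abcc2. In Dex vs Veh limma called 0 of the 20, with 9 at an unadjusted p under 0.05, beside 15.2% of all features. In Veh vs Con it called 1, Gstp1, which fell by 1.08, beside 3.86% of all features called in either direction. Hmox1, the stress-induced heme oxygenase, lay between 156.0 and 318.2 in Dex, 140.9 and 361.5 in Veh and 133.2 and 377.5 in Con.

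Genes of other cell types were looked at beside these values, since in a piece of liver fewer cells of a type and less RNA per cell cannot be told apart. The summed intensity of 11 hepatocyte markers ran from 77730 to 183900 in Dex, from 68330 to 140000 in Veh and from 65220 to 124200 in Con. Of these 11 genes limma called 0 in Dex vs Veh, with 4 at an unadjusted p under 0.05, beside 15.2% of all features. In Dex vs Con 6 were called as higher, beside 3.26% of all features. When Dex 1, Dex 2 and Dex 3 were left out limma called 0 of them as higher and Fgb as lower, and the list median in Dex vs Con was 0.41, beside 0.50 with all mice. Their mean log2 level correlated with Mt1 at r = 0.52 over the 27 mice. The summed 13 macrophage markers on the array lay between 745.1 and 1860 in Dex, between 1019 and 5286 in Veh and between 1089 and 2199 in Con (r = 0.08 with Mt1). Of 12 tested, 3 were lower in Dex vs Con, Cd5l, Ctss and Mrc1, beside 13.2% of all features called as lower. Without Dex 1, Dex 2 and Dex 3 only 1, Mrc1, was called. The macrophage median was -0.62 in Dex vs Con (-0.65 without these 3 mice) and -0.49 in Dex vs Veh. There limma called 0 of 12 and 4 had an unadjusted p under 0.05, beside 15.2% of all features. For the 9 neutrophil markers on the array the ranges were 363.5 to 490.4 in Dex, 207.7 to 434.3 in Veh and 233.3 to 438.6 in Con (r = 0.32), and S100a8, S100a9, Mpo, Ngp and Cxcr2 were too dim to be tested. The 4 neutrophil markers that were tested were all higher in Dex vs Veh at an unadjusted p under 0.05, beside 15.2% of all features at that p. Their median was 0.72 (0.71 without Dex 1, Dex 2 and Dex 3), and limma called 0 of them. In Veh vs Con 0 of the 4 were higher, with a median of -0.29 beside -0.19 over all features. Ly6g was called as lower there, beside 3.86% of all features called in either direction. In Dex vs Con 3 of the 4 were higher, with a median of 0.175 beside -0.20 over all features, and 0 were called. Of 2 tested bile duct markers 1, the secreted peptide Tff3, was called as higher in Dex vs Veh (3.53 ± 0.76, limma adjusted p = 0.044), beside 0.265% of all features called. The other tested marker was not higher, and Krt19, Krt7 and Epcam were not tested. Without Dex 1, Dex 2 and Dex 3 limma called 0 of the 2 in Dex vs Veh, with a median of 2.11 beside 1.76 with all mice. No marker of the hepatocyte, macrophage or neutrophil lists was at 0 in a liver. The part of these cells in the metallothionein levels was not tested.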

How the data were processed

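Liver RNA of 27 mice was measured on 27 Affymetrix arrays, 9 each in Dex, Veh and Con. The deposited table holds 1 linear intensity per feature and array. The deposited arrays shared a trimmed mean (2% per end, 100.1 to 100.2), from which scaling by 1 factor per array was inferred. The authors' own scaling step and software are not stated in the sources used here. Per the labels, Trizol and RNeasy kits were used for extraction.

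A floor at the 10th percentile of positive intensities (2.6) was applied before log2. The 66 control features were left out, and a feature was tested if above its array's median in at least 9 of the 27 arrays, which left 6784. One limma fit (version 3.58.1, R 4.3.3) covered the 3 groups (eBayes with a mean trend, 24 residual degrees of freedom, Benjamini-Hochberg over the 6784, threshold 0.05). The fit was tested on simulated data. Exact permutation tests used all 48620 regroupings of 18 arrays, two-sided (SciPy 1.17.1). For a gene with several features the brightest was used.

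The members and the gene lists were chosen with earlier results of these data known. Named were the 8 genes most correlated with Mt1 and Mt2, 13 fixed genes, and list members past the threshold or the 3 with the smallest p where none passed. Slc39a14 was not analysed here. Genes named beyond this rule (Mt3, Mt4, cell markers, calls of the fit without 3 Dex mice and 4 genes in the closing section) were chosen after their values were seen. The alternatives were another normalization, 2 floors, 2 filters, a replicate block, fits of only 2 groups, array weights, the beta-actin ratio and leaving out each array. Over all features the equal replicate numbers did not pair the mice: in Dex and Veh 3 of 9 same-numbered pairs had deviations correlated over 0.1. For Mt1 and Mt2 themselves the replicate block lowered the SE of Dex vs Con, from 1.16 to 0.84 and from 0.99 to 0.70. What the replicate numbers stand for is not stated. An array has no read depth, and the number of arrays limits the precision.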

Additional observations from a re-analysis of the deposited data

Results flagged for a closer look

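Among the named genes, 2 values stood far from the rest of their group by a gap test (the gap to the nearest mouse over the group's range, limit 0.493 for 9 mice). In Veh 2, the mouse with the highest Veh metallothionein, Tdo2 was the lowest of its group at 11.34 (log2), with the nearest mouse at 12.21. This holds for the brighter of its 2 features: on the other, Veh 7 was lowest at 434.8 intensity units and Veh 2 read 535.0. In Dex 2, the mouse with the highest Mt1 and Mt2 of all, Orm2 was the highest of its group at 9.48, with the nearest at 7.51. Chance flags about 1 in 20 groups, and 63 were looked at. No mouse was flagged for Mt1 or Mt2 themselves.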

How the results depend on the processing

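Of 80 planned settings over the metallothionein results, other than leaving out an array, 78 kept the direction and the side of the threshold. The exceptions came with the replicate block, under which the unchanged Dex vs Con differences of 2.74 for Mt1 and 2.32 for Mt2 passed the threshold (limma adjusted p = 0.0295 and 0.0285), while Dex vs Veh did not (0.129 and 0.0909). The block moved the called features of Dex vs Veh to 3 from 18, and own-numbered pairs correlated best in 3 of 9 mice or fewer. The cause was not tested. Over the planned settings the Dex vs Veh difference ran from 2.71 to 4.15 for Mt1 and from 2.56 to 4.18 for Mt2. The 2 floors and 2 filters left the metallothionein differences unchanged. No Mt1 or Mt2 value was moved by a floor, and a filter changes only which other features are tested. The 78 of 80 is therefore not a measure of how robust the results are.

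Leaving out 1 array, Dex vs Veh ran from 2.47 to 3.51 (Mt1) and 2.34 to 3.4 (Mt2), and Dex vs Con from 2.22 to 3.25 and 1.87 to 2.72, with 0 of 27 sets past the threshold for each. Veh vs Con ran from -0.77 to 0.34 for Mt1, with the sign turned without Con 1, 2, 3, 7 or 9 or Veh 1, 8 or 9, and from -1.08 to -0.07 for Mt2. The spread differences ran from 0.07 to 0.83 (Mt1 Dex vs Veh), -0.92 to -0.18 (Mt1 Dex vs Con), -1.41 to -0.49 (Mt1 Veh vs Con), -0.23 to 0.69 (Mt2 Dex vs Veh, sign turned without Dex 1, 2 or 3 or Veh 4, 5, 6 or 9), -0.0058 to 0.62 (Mt2 Dex vs Con, turned without Dex 2) and -0.31 to 0.45 (Mt2 Veh vs Con, turned without Veh 2 or 3). Without Dex 1, 2 and 3, chosen after seeing the data and the highest Dex mice in both genes, spread differences turned to -0.68 (Mt1 Dex vs Veh), -1.03 (Mt2 Dex vs Veh) and -0.80 (Mt2 Dex vs Con).

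Called features moved by over 1.5 times from 18 in Dex vs Veh (7 without a filter, 4 with array weights, 1 with only 2 groups, with the beta-actin ratio or without Dex 1 to 3), from 1115 in Dex vs Con (658 with quantile normalization, 405 without Dex 1 to 3) and from 262 in Veh vs Con (85 with quantile normalization, 116 without a filter, 656 with only 2 groups, 1158 with array weights, 33 with the beta-actin ratio).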

Other observations

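Opposite patterns were as close as similar ones. Of 5198 genes 7 had a mean r with Mt1 and Mt2 under -0.7, against 3 over 0.7. The lowest 4, picked after their values were seen and given without a test, were Smagp (-0.79), a small membrane protein, Perp (-0.73), Ddc (-0.73), the decarboxylase of aromatic amino acids, and Sec14l2 (-0.72). Smagp read 19.0 in Dex 2, the mouse with the most Mt1 and Mt2, with a median of 80.1 in Dex, 111.1 in Veh and 108.1 in Con. Its mean r was -0.67 without Dex 1, Dex 2 and Dex 3. Smagp was lower in Dex than in Con (-0.88 ± 0.29, log2, SE, 9 mice each, limma adjusted p = 0.0371) and did not pass in Dex vs Veh (-0.79 ± 0.29, 0.193). Without Dex 1, Dex 2 and Dex 3, in which Smagp read 39.2, 19.0 and 39.1, the difference from Con was -0.33 and did not pass (limma adjusted p = 0.392).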
